A study of Mus musculus with 6 samples.

Results

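Lipid-associated macrophages are tissue macrophages that gather around lipid-loaded or dying adipocytes and take up and break down their lipid. Their gene program is described around TREM2, a surface receptor that binds lipids and lipoproteins and signals through the adaptor TYROBP, and it joins a secreted phosphoprotein, tetraspanins and a galectin to the handling of cholesterol and fatty acids in the lysosome. In brown adipose tissue (BAT), macrophages clear material that brown adipocytes shed, and several genes of the program, such as Apoe, Lipa and Cd63, are also used by adipocytes and other cells. The rows of the count table whose symbol is Trem2, Tyrobp, Cd9, Gpnmb, Spp1, Fabp5, Lgals3, Cd63, Apoe or Lipa were taken as the lipid-associated macrophage genes, which gave 10 genes of the 35976 listed. All 10 passed the filter on low counts, which kept 14542 genes.

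BAT was sequenced from 3 sST2-KO mice and 3 WT littermates, male and 10 weeks old on a C57BL/6J background. The sST2-KO mice carry a germline CRISPR/Cas9 deletion of intronic sequence of Il1rl1 that holds the stop codon of soluble ST2 (sST2), a design that removes sST2 in the whole animal, although its loss cannot be checked from these counts. In both groups the nerves that supply BAT had been cut, after which the mice spent 7 days at 30 °C and then 8 h at 10 °C, so that no sham-operated or warm group is compared here. The comparison asks what the loss of sST2 changed in denervated BAT during cold. Libraries are named by group and replicate number, and where 3 values are given for a group they follow the order of replicates 1, 2 and 3.

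The libraries held between 8159442 and 12874809 counts, and values are given as CPM, counts scaled to library size with edgeR's TMM factors. Genes were tested with the quasi-likelihood method of edgeR and Benjamini-Hochberg adjustment over the 14542 genes. A call needed more than a 2-fold change besides an adjusted p under 0.05. Single values such as ratios were tested by exact permutation over the 6 libraries, for which 0.1 is the smallest two-sided p. The targeted gene Il1rl1 had 19, 19 and 6 counts in the WT libraries and 55, 69 and 142 counts in sST2-KO libraries, and counts per gene add up sST2 and ST2L, so they do not check the genotype. Some libraries stood apart from their groups. In WT replicate 1, the skeletal muscle markers summed to 1256 CPM, against 20.8 and 6.41 CPM in WT replicates 2 and 3. The fibroblast markers summed to 6100 CPM there, against 1953 and 2258 CPM. They summed to 10040 CPM in sST2-KO replicate 3, against 1135 and 2221 CPM in sST2-KO replicates 1 and 2. In WT replicate 2, 11 detected hepatocyte genes summed to 6653 CPM, against 12.3 to 63.1 CPM in the others. In sST2-KO replicate 3, the 13 macrophage markers summed to 7216 CPM, against 956 to 1839 CPM in the others, and 6.80% of the counts were mitochondrial, against 11.8 to 16.6%. The calls of the 10 genes are given with and without each of these libraries, and those of the other lists by how many held.

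The 10 genes did not move as a group. Spp1, Lgals3 and Tyrobp rose in the BAT of sST2-KO mice, Apoe fell, and the other 6 genes, Trem2 among them, were not called. Higher calls were thus made for 3 of the 10 genes, where 9.04% of all genes tested were called higher, and lower calls for 1 of 10, where 7.10% were called lower. Without the 2-fold limit the numbers were the same, 3 higher and 1 lower, against 10.5% and 9.10% of all genes. In either direction, 4 of the 10 were thus called with and without that limit, against 16.1% and 19.6% of all. In 4 of the 10 genes (Spp1, Lgals3, Tyrobp and Cd63) every sST2-KO library lay above every WT library, a pattern held by 21.8% of all genes tested. In 2 (Apoe and Lipa) all sST2-KO libraries were below the lowest WT library, against 19.7% of all genes, which makes 6 of 10 without overlap, against 41.5% of all. The log2 fold change was above 0 in 7 of the 10 and in 52.0% of all genes. Over the 10 genes the median log2 fold change was 0.48, against 0.034 over all genes tested. In bulk tissue, fewer cells of a type and less RNA per cell cannot be told apart, and this holds for each result below.

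**Figure D1:**
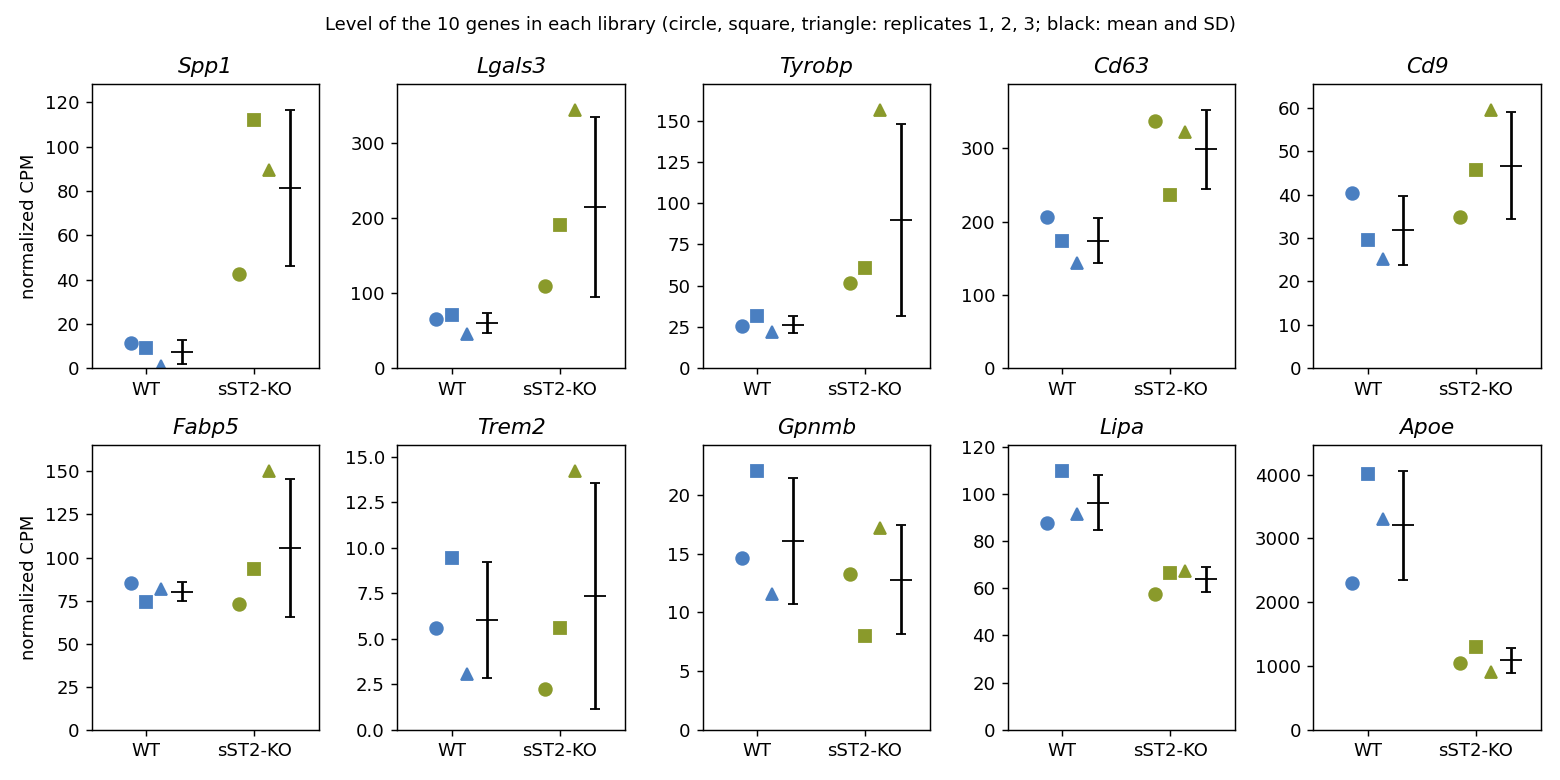
Normalized CPM (vertical axes, each from 0) of the 10 genes in each of the 3 WT and 3 sST2-KO libraries; circles, squares and triangles are replicates 1, 2 and 3, and the black mark and bar are the mean and SD of each group. The groups are separate in Spp1, Lgals3, Tyrobp and Cd63 (sST2-KO higher) and in Lipa and Apoe (sST2-KO lower), and overlap in Cd9, Fabp5, Trem2 and Gpnmb.

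The sequences before the RefSeq start of 3 of the genes are shown because these genes mark the ends and the center of the list: Spp1 has its largest rise, Apoe its largest fall, and Trem2 is the receptor the program is described around. Each is the run of 250 bases before the gene start in RefSeq, taken from its table on build GRCm38.p6 and found once by exact match in GRCm39, and is written 5′ to 3′ on the gene's strand. The windows of Spp1 and Apoe lie inside the longer gene spans given below, since the GENCODE models include transcripts that begin further upstream. Capitals mark GAGGAA or its reverse complement, the core of sites of the myeloid factor PU.1, and TGANTCA, in which N is any base. TGANTCA is looser than the site of AP-1 factors, in which N is C or G. In Trem2 the marked stretch is TGAATCA, so it is not that stricter site.
Spp1, chr5:104582727-104582976 (plus strand): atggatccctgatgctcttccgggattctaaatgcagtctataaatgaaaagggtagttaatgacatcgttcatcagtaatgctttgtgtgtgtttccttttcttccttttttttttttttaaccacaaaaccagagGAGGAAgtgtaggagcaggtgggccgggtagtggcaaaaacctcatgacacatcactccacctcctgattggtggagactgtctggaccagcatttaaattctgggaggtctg
Apoe, chr7:19433114-19433363 (minus strand): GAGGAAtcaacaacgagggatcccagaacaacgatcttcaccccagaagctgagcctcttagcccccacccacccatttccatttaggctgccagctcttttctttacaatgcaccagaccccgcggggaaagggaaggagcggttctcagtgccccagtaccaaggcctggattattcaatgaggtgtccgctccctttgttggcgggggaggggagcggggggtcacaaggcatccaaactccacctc
Trem2, chr17:48653179-48653428 (plus strand): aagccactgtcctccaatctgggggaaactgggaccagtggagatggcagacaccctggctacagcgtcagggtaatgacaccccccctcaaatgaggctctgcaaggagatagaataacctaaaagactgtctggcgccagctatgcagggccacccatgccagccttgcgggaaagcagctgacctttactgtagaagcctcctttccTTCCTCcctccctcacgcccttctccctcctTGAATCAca

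Of the 10 genes, 8 had an entry in the RefSeq table, the exceptions being Tyrobp and Fabp5. GAGGAA was found on either strand before 5 of the 8 genes (Trem2, Spp1, Cd63, Apoe and Lipa), and before 23.1% of the 27025 genes in the table. TGANTCA was found before 1 of the 8, Trem2, as TGAATCA, and before 6.87% of all with any base at N. CACGTG, the core letters bound by the lysosomal regulators TFEB, TFE3 and MITF, was found before 0 of the 8 and before 6.05% of all, which says only that these letters are not in these windows. GAGGAA stood before genes that rose, fell and were not called. A match in letters is a description and not a bound site.

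Spp1 encodes osteopontin, a secreted phosphoprotein that binds integrins and CD44 and acts on macrophage movement and survival. In GRCm39 it spans bases 104582165 to 104589235 of chromosome 5, plus strand, and positions of the other genes are given on the same build. Its level was 11.5, 9.24 and 1.11 CPM in the WT libraries and 42.6, 112 and 89.4 CPM in sST2-KO libraries. Every sST2-KO library was above every WT library, and the lowest value, in WT replicate 3, stood on 9 counts. The mean ± SD of 3 mice was 7.27 ± 5.45 CPM in WT and 81.3 ± 35.4 CPM in sST2-KO BAT, and the gene rose with a log2 fold change of 3.46 (SE 0.72, edgeR adjusted p = 0.0206), the highest of the 10 and rank 205 of the 14542 genes. In the fits that each omitted 1 library it stayed between 2.97 and 3.93, and the adjusted p passed 0.05, at 0.0624 and 0.0589, without WT replicate 2 or 3. Unlike the macrophage markers, Spp1 was not highest in sST2-KO replicate 3.

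Lgals3 encodes galectin-3, a lectin that macrophages secrete and that binds damaged lysosomes and cell surface sugars, and lies on chromosome 14 from 47605208 to 47623624 on the plus strand. It had 65.9, 70.8 and 45.2 CPM in the WT libraries and 109, 191 and 345 CPM in sST2-KO libraries. The lowest sST2-KO value was above the highest WT value, and sST2-KO replicate 3 was the highest. The mean ± SD of 3 mice was 60.7 ± 13.6 CPM in WT and 215 ± 120 CPM in sST2-KO BAT, and the gene rose with a log2 fold change of 1.82 (SE 0.42, edgeR adjusted p = 0.0266). Leaving out sST2-KO replicate 3 gave 1.30 on the log2 scale (adjusted p = 0.0452, edgeR), and without WT replicate 1, 2 or 3 the adjusted p was 0.0602, 0.0706 and 0.110.

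Tyrobp encodes the adaptor, also called DAP12, that carries the signal of TREM2 and of several other receptors of myeloid and natural killer cells. It lies on chromosome 7 from 30113170 to 30117010 on the plus strand. Its level was 25.8, 31.9 and 21.7 CPM in the WT libraries and 51.7, 61.0 and 157 CPM in sST2-KO libraries, again without overlap and with the highest value in sST2-KO replicate 3. The mean ± SD of 3 mice was 26.4 ± 5.11 CPM in WT and 89.8 ± 58.1 CPM in sST2-KO BAT, and the gene rose with a log2 fold change of 1.76 (SE 0.43, edgeR adjusted p = 0.0312). Without sST2-KO replicate 3 it was 1.08 (adjusted p = 0.0347, edgeR), a smaller value that was still called, and the adjusted p was 0.0772, 0.0745 and 0.125 without WT replicate 1, 2 or 3.

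Trem2 encodes the receptor that TYROBP serves in these macrophages, and it was not called. It lies on chromosome 17 from 48653429 to 48661175 on the plus strand and had 60, 100 and 25 counts in the WT libraries and 32, 47 and 144 counts in sST2-KO libraries. These were 5.60, 9.42 and 3.08 CPM against 2.23, 5.58 and 14.2 CPM. The sST2-KO libraries held both the lowest and the highest of the 6 values. The log2 fold change of 0.27 had a 95% interval from -1.30 to 1.84 (adjusted p = 0.804, edgeR), so that a change of more than 2-fold in either direction, and the estimate of Tyrobp, lie within its error. Its sign depended on single libraries, with -0.66 without sST2-KO replicate 3 and -0.046 without WT replicate 3. The ratio of Tyrobp CPM to Trem2 CPM was 4.60, 3.38 and 7.04 in the WT libraries and 23.2, 10.9 and 11.0 in sST2-KO libraries. Every sST2-KO ratio was thus above every WT ratio, a difference of 1.56 on the log2 scale (exact two-sided permutation p = 0.1, the smallest 3 against 3 can give). This ratio, and those of other pairs below, were chosen after the values were seen, and 4 pairs were compared (Benjamini-Hochberg adjusted p = 0.133 for the 3 pairs with an exact p of 0.1).

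Cd63 and Cd9 encode tetraspanins, membrane proteins that organize other proteins, in late endosomes and exosomes for CD63 and mainly at the cell surface for CD9. Cd63, on chromosome 10 from 128731528 to 128748709 on the plus strand, had 206, 174 and 143 CPM in the WT libraries and 337, 237 and 322 CPM in sST2-KO libraries. The groups did not overlap, but the log2 fold change of 0.78 (95% interval 0.22 to 1.33) did not pass the test (adjusted p = 0.0569, edgeR). DESeq2 gave an adjusted p of 0.0121 with a fold change under 2, and with total counts as the scale the gene was called (log2 fold change 1.03, adjusted p = 0.0383, edgeR), and over all 14 alternatives the adjusted p ran from 0.0121 to 0.245. Cd9, on chromosome 6 from 125437210 to 125471778 on the minus strand, had 40.5, 29.5 and 25.3 CPM in the WT libraries and 34.9, 45.7 and 59.6 CPM in sST2-KO libraries. The groups overlapped, with a log2 fold change of 0.56 (95% interval -0.059 to 1.17, adjusted p = 0.173, edgeR).

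Gpnmb encodes a transmembrane glycoprotein of lysosome-rich macrophages and melanocytes, and lies on chromosome 6 from 49013426 to 49047863 on the plus strand. Its level was 14.6, 22.1 and 11.6 CPM in the WT libraries and 13.2, 7.95 and 17.2 CPM in sST2-KO libraries, and the groups overlapped. The log2 fold change was -0.33 (95% interval -1.16 to 0.50, adjusted p = 0.542, edgeR), an interval that leaves out a 2-fold rise. Fabp5, which encodes an intracellular carrier of fatty acids and lies on chromosome 3 from 10077602 to 10081674 on the plus strand, had 85.0, 74.3 and 81.5 CPM in the WT libraries. It had 72.9, 93.4 and 150 CPM in sST2-KO libraries, where 1 library was below and 2 were above the WT range. The log2 fold change of 0.39 (95% interval -0.25 to 1.04, adjusted p = 0.341, edgeR) was 0.046 without sST2-KO replicate 3.

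Apoe encodes apolipoprotein E, which carries lipid out of macrophages and other cells, and lies on chromosome 7 from 19430034 to 19434947 on the minus strand. It had 2308, 4006 and 3305 CPM in the WT libraries and 1051, 1299 and 912 CPM in sST2-KO libraries, so that the highest sST2-KO value was below the lowest WT value. The mean ± SD of 3 mice was 3206 ± 853 CPM in WT and 1087 ± 196 CPM in sST2-KO BAT, and the gene fell with a log2 fold change of -1.56 (SE 0.33, edgeR adjusted p = 0.0208). Hepatocytes also make apolipoprotein E, and the highest value was in WT replicate 2, where the hepatocyte genes were high. Without that library the log2 fold change was -1.37 (adjusted p = 0.0694, edgeR). The adjusted p was also above 0.05 without WT replicate 3, sST2-KO replicate 1 or sST2-KO replicate 3, at 0.0836, 0.0549 and 0.0506, while the log2 fold change stayed between -1.75 and -1.37. The part of hepatocyte RNA in the level of Apoe was not tested.

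Lipa encodes the lysosomal acid lipase that breaks down cholesteryl esters and triglycerides, and lies on chromosome 19 from 34469712 to 34522163 on the minus strand. It had 87.9, 110 and 91.4 CPM in the WT libraries and 57.5, 66.7 and 67.1 CPM in sST2-KO libraries, without overlap and with little spread in the sST2-KO group. The log2 fold change of -0.60 (SE 0.18) did not pass the test (adjusted p = 0.0512, edgeR). DESeq2 gave an adjusted p of 0.0175, and with total counts as the scale the log2 fold change was -0.33 (adjusted p = 0.225, edgeR). Over 14 alternatives the adjusted p ran from 0.0175 to 0.225.

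Without both WT replicate 2 and sST2-KO replicate 3, the fits gave log2 fold changes of 3.57 in Spp1, 1.43 in Lgals3, 1.24 in Tyrobp and -1.26 in Apoe. With 2 mice in each group Tyrobp was still called, while the adjusted p was 0.0619 in Spp1, 0.0649 in Lgals3 and 0.105 in Apoe (edgeR).

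**Figure D2:**
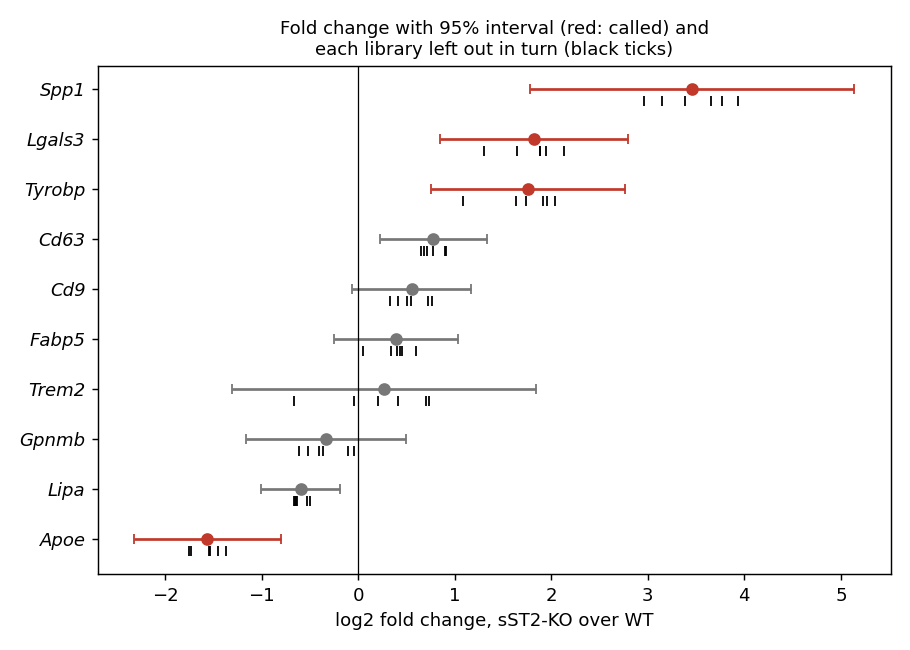
Log2 fold change of sST2-KO over WT (horizontal axis) of the 10 genes, with dots and bars for the estimate and its 95% interval from edgeR, red where the gene was called, and black ticks for the fits that each left out 1 library. The estimates run from 3.46 in Spp1 to -1.56 in Apoe, and the ticks lie on both sides of 0 only in Trem2.

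Levels of different genes were compared per kb of the annotation's canonical transcript. In WT mice Apoe was far above the others, with a mean of 1470 CPM per kb, followed by Cd63 (126), Fabp5 (80.8), Lgals3 (44.1), Tyrobp (43.5), Lipa (32.4), Cd9 (25.0), Trem2 (5.55), Gpnmb (4.21) and Spp1 (3.26). Lgals3, Tyrobp, Lipa and Cd9 overlapped with their neighbors in this order, as did Trem2, Gpnmb and Spp1, and the other neighbors did not overlap between libraries. In sST2-KO mice the order was Apoe (498), Cd63 (216), Lgals3 (156), Tyrobp (148), Fabp5 (106), Cd9 (36.8), Spp1 (36.5), Lipa (21.4), Trem2 (6.75) and Gpnmb (3.34). Here Cd63, Lgals3, Tyrobp and Fabp5 overlapped with their neighbors, as did Cd9, Spp1 and Lipa, and then Trem2 and Gpnmb. The mean of Spp1 per kb was thus the lowest of the 10 in WT mice and close to that of Cd9 in sST2-KO mice. Its sST2-KO libraries had 19.1, 50.3 and 40.1 CPM per kb, against 27.4, 35.9 and 46.9 for Cd9.

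The macrophage markers themselves were not uniform. All 13 had a positive log2 fold change, with a median of 1.46, and were detected in every library. Of these, 4 were called higher (30.8%, against 9.04% of all genes tested). Adgre1, which encodes the macrophage antigen F4/80, had 29.9, 35.9 and 21.0 CPM in the WT libraries and 77.6, 38.0 and 244 CPM in sST2-KO libraries, without overlap (log2 fold change 2.05, adjusted p = 0.0587, edgeR). Cd68, which encodes a lysosomal glycoprotein of macrophages, had a log2 fold change of 1.46 (adjusted p = 0.0696, edgeR), also without overlap. Csf1r, the receptor for the macrophage growth factor CSF1, had 78.8, 69.5 and 62.3 CPM in the WT libraries and 64.0, 63.0 and 313 CPM in sST2-KO libraries. Its log2 fold change was 1.06 (adjusted p = 0.253, edgeR), and the sST2-KO libraries other than replicate 3 lay within the WT range. C1qa, a complement gene of resident macrophages, had the same shape, with 145, 155 and 555 CPM in sST2-KO libraries against 187, 160 and 144 CPM in the WT libraries. The 4 called markers were Itgam, an integrin of myeloid cells (log2 fold change 2.67), Aif1, which encodes IBA1 (2.37), Lyz2, lysozyme (2.34), and Fcgr1, the high affinity IgG receptor (1.93), with adjusted p values from 0.0166 to 0.0495 in the edgeR test. In both sST2-KO replicates 1 and 2, 6 of the 13 markers were above the highest WT value (these 4, Adgre1 and Cd68), as were Spp1, Lgals3, Tyrobp and Cd63, while 3 markers were above it in 1 of these libraries and 4 in neither. Without sST2-KO replicate 3 the median of the 13 markers was 0.78 and 3 were called, and without WT replicate 2 or WT replicate 3 the number called was 0.

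Each of the 10 genes was set against these markers by subtracting, in each library, the mean log2 CPM of the 13 markers from its own log2 CPM. Spp1 differed most upward, by 2.61 on the log2 scale, with -2.59, -2.81 and -5.23 in the WT libraries and -1.16, 0.20 and -1.85 in sST2-KO libraries. Tyrobp was higher by 0.35 without overlap between the groups, and Lgals3 by 0.45 with overlap. Trem2 was lower by 1.20, at -3.60, -2.78 and -3.90 against -5.30, -4.08 and -4.49, also without overlap. Gpnmb was lower by 1.59, Fabp5 by 0.91, Lipa by 1.83 and Apoe by 2.78, each without overlap, and Cd9 by 0.70 and Cd63 by 0.47 with overlap. The mean log2 CPM of the markers was itself 6.14, 6.05 and 5.61 in the WT libraries and 6.58, 6.61 and 8.34 in sST2-KO libraries. A gene with an unchanged level would therefore also lie lower relative to them, without overlap. The share of all genes with that pattern is not given here. The lack of overlap in Trem2, Gpnmb, Fabp5, Lipa and Apoe thus does not by itself tell these genes from an unchanged one. The exact two-sided permutation p was 0.1, the smallest that 3 against 3 allows, for each of the 7 genes without overlap. After Benjamini-Hochberg adjustment over the 10 genes this permutation p was 0.143. With Adgre1 alone as the reference, Tyrobp was at -0.068, so its direction relative to macrophages depended on the marker.

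**Figure D3:**
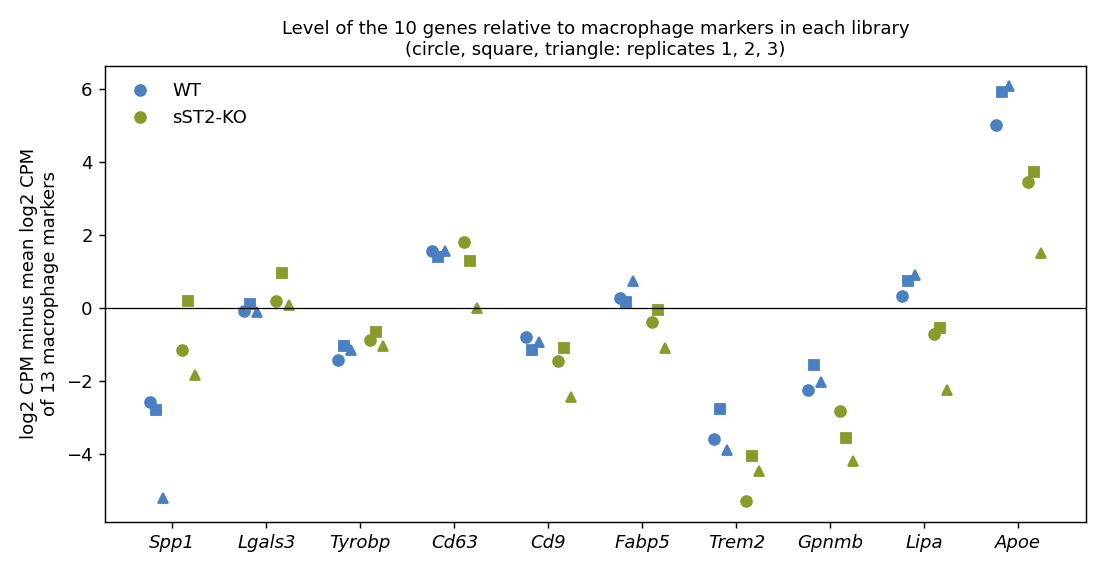
Log2 CPM of each of the 10 genes minus the mean log2 CPM of the 13 macrophage markers (vertical axis) in each WT and sST2-KO library; circles, squares and triangles are replicates 1, 2 and 3. Spp1 lies higher in sST2-KO libraries (2.61 on average), while Trem2, Gpnmb, Fabp5, Lipa and Apoe lie lower in all 3 sST2-KO libraries than in any WT library. The mean of the markers was itself higher in every sST2-KO library than in any WT library, so an unchanged gene would also lie lower.

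Of 8 partners and effectors of TREM2, 6 were called higher (75%, against 9.04% of all genes tested) and 0 lower. The median log2 fold change was 1.73. Hcst, which encodes the adaptor DAP10, was higher by 2.16 on the log2 scale, Vav1, a guanine nucleotide exchange factor, by 2.12, Plcg2, the phospholipase downstream of SYK, by 2.07, and Syk, the kinase that binds the adaptor, by 1.76. Btk, a kinase of the same cascade, was higher by 1.70 and Inpp5d, the lipid phosphatase that limits it, by 1.24. The adjusted p of these 6 genes in the edgeR test ran from 0.0133 for Vav1 to 0.0458 for Syk. The proteases that shed TREM2, Adam10 (0.92, adjusted p = 0.0808) and Adam17 (0.30, adjusted p = 0.458), were not called by edgeR. Without sST2-KO replicate 3 the median of the 8 genes was 1.00 and 2 were called, Hcst and Vav1, while Syk was at 0.89. Calls numbered 1 without WT replicate 2 and 0 without WT replicate 3. These effectors also serve other receptors of myeloid cells and lymphocytes.

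Among the other genes of the TREM family, 3 of the 4 tested were called higher (75%, against 9.04% of all genes tested). Trem1, a receptor of neutrophils and monocytes that also signals through TYROBP, went from 1.53 ± 0.0673 to 13.1 ± 9.05 CPM (mean ± SD, n = 3 in each group) at a log2 fold change of 3.09 (adjusted p = 0.0150, edgeR). Trem3 had 3, 5 and 2 counts in the WT libraries and 29, 18 and 83 counts in sST2-KO libraries, and its log2 fold change was 3.56 (adjusted p = 0.0203, edgeR). Treml2 had a log2 fold change of 2.43 (adjusted p = 0.0162, edgeR). Treml4 had 1 to 14 counts in WT libraries and 7 to 34 in sST2-KO libraries (adjusted p = 0.233, edgeR), and Treml1, with 2 to 8 counts, was not tested. Without sST2-KO replicate 3 all 3 were still called, without WT replicate 2 the number was 2, and without WT replicate 3 it was 0. Trem2 was thus the member of the family with the smallest fold change among those tested.

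Receptors of osteopontin were described beside Spp1. Of 7 genes, 3 were called higher (42.9%, against 9.04% of all genes tested) and 0 lower. The median log2 fold change was 0.77. Cd44, which encodes a receptor for hyaluronan and osteopontin, had 35.1, 28.2 and 13.8 CPM in the WT libraries and 58.2, 112 and 273 CPM in sST2-KO libraries, without overlap (log2 fold change 2.52, adjusted p = 0.0287, edgeR). The integrin genes Itgb3 (1.27, adjusted p = 0.0220) and Itga4 (1.23, adjusted p = 0.0430) were also higher in the edgeR test. Itgav, the partner of the beta 3 chain, had a log2 fold change of 0.77 without overlap (adjusted p = 0.0841, edgeR). Itgb1 (0.22), Itgb5 (-0.18) and Itga9 (0.48) had adjusted p values from 0.284 to 0.588 in the edgeR test. None of the 7 was called without WT replicate 2, WT replicate 3 or sST2-KO replicate 3, where the adjusted p of Cd44 was 0.0830, 0.108 and 0.0505 (edgeR).

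Of another 28 genes described in lipid-associated macrophages, 4 were called higher (14.3%, against 9.04% of all genes tested) and 2 lower (7.14%, against 7.10%), with a median log2 fold change of 0.31. The largest rises were in Msr1, a scavenger receptor for modified lipoproteins, at 2.92 (adjusted p = 0.0195, edgeR), and in Cd52, a surface antigen of leukocytes, at 2.52 (adjusted p = 0.0139, edgeR). The largest falls were in Syngr1, a vesicle protein, at -1.99 (adjusted p = 0.0154, edgeR), and in Lpl, lipoprotein lipase, at -1.70 (adjusted p = 0.0349, edgeR). Lpl, which adipocytes also make, went from 6269 ± 1628 to 1935 ± 777 CPM (mean ± SD, n = 3 in each group). Without sST2-KO replicate 3 the median of the 28 genes was -0.024, with 4 called higher and 1 lower. Without WT replicate 2 the numbers were 2 and 1, and without WT replicate 3 none was called. Lpl was not called with any library left out (adjusted p from 0.0533 to 0.127, edgeR).

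Genes of lysosomal lipid handling and their regulators stayed near 0 as a list, with a median of -0.066 over 17 genes. Of these, 0 were called higher and 1 lower (5.88%, against 7.10% of all genes tested). Smpd1, acid sphingomyelinase, fell by 1.19 on the log2 scale (adjusted p = 0.0497, edgeR). Nr1h3, which encodes the oxysterol receptor LXR alpha that controls Apoe in macrophages, had a log2 fold change of -0.94 (adjusted p = 0.0195, edgeR), under the 2-fold limit. It had 84.0, 96.1 and 117 CPM in the WT libraries and 55.3, 45.7 and 53.3 CPM in sST2-KO libraries, without overlap. Soat1, which makes cholesteryl esters, had 11.9, 6.50 and 4.56 CPM against 12.7, 19.2 and 72.2 CPM (log2 fold change 2.17, adjusted p = 0.0628, edgeR), and without sST2-KO replicate 3 its log2 fold change was 1.05 (adjusted p = 0.164, edgeR). Of the fits that each left out 1 library, Smpd1 passed only in that without sST2-KO replicate 1. Mitf had a log2 fold change of 1.36 (adjusted p = 0.0830, edgeR).

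The relatives of the 10 genes were listed by family. Apoc1, the apolipoprotein gene next to Apoe, fell from 274 ± 100 to 69.7 ± 23.0 CPM (mean ± SD, n = 3 in each group) at a log2 fold change of -1.97 (adjusted p = 0.0166, edgeR). Without WT replicate 3 its adjusted p was 0.0653 (edgeR). The ratio of Apoe CPM to Apoc1 CPM overlapped between the groups, with 12.6, 15.7 and 8.65 in the WT libraries and 14.0, 14.5 and 20.6 in sST2-KO libraries (exact two-sided permutation p = 0.3, 3 against 3). Apoa2, a hepatocyte gene, had 13.1, 265 and 23.3 CPM in the WT libraries and 5.79 to 7.83 CPM in sST2-KO libraries (log2 fold change -3.92, adjusted p = 0.0467, edgeR). Without WT replicate 2, the library with the hepatocyte genes, the log2 fold change of Apoa2 was -1.45 (adjusted p = 0.0544, edgeR). Apod had a log2 fold change of 0.051. Of 10 apolipoprotein genes only these 3 were tested. Lower calls in this list numbered 1 without WT replicate 2, 0 without WT replicate 3 and 1 without sST2-KO replicate 3. Among 6 other galectins tested, 0 were called. Lgals8 was higher by 0.68 (adjusted p = 0.0335, edgeR), and Lgals9 (0.44), Lgals12 (-0.55) and Lgals1 (-0.60) had adjusted p values from 0.197 to 0.440. The ratio of Lgals3 CPM to Lgals1 CPM was 0.149, 0.180 and 0.0722 in the WT libraries and 0.495, 0.541 and 0.881 in sST2-KO libraries, without overlap (exact two-sided permutation p = 0.1, 3 against 3).

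Of 12 other tetraspanins, 4 were called higher (33.3%, against 9.04% of all genes tested) and 0 lower. Tspan8 had 2, 1 and 0 counts in the WT libraries and 94, 20 and 158 counts in sST2-KO libraries. Cd53, a tetraspanin of leukocytes, was higher by 2.42 on the log2 scale (adjusted p = 0.0176, edgeR), while Cd81 (-0.83) and Cd151 (-0.46) were not called. Higher calls among the 12 numbered 2 without WT replicate 2, 0 without WT replicate 3 and 2 without sST2-KO replicate 3. Only 2 other fatty acid binding protein genes were tested. Fabp3 fell by 2.25 on the log2 scale (adjusted p = 0.0238, edgeR). Leaving out WT replicate 2, WT replicate 3 or sST2-KO replicate 1 moved its adjusted p to 0.0684, 0.0881 and 0.0571 (edgeR). Fabp4, the carrier most used by adipocytes, had 9717, 10070 and 11810 CPM in the WT libraries and 7038, 5678 and 3349 CPM in sST2-KO libraries. The groups did not overlap in Fabp4 (log2 fold change -0.98, adjusted p = 0.122, edgeR), whereas they overlapped in Fabp5. The ratio of Fabp5 CPM to Fabp4 CPM was 0.00875, 0.00737 and 0.00690 in the WT libraries and 0.0104, 0.0164 and 0.0449 in sST2-KO libraries, again without overlap (exact two-sided permutation p = 0.1, 3 against 3).

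**Figure D4:**
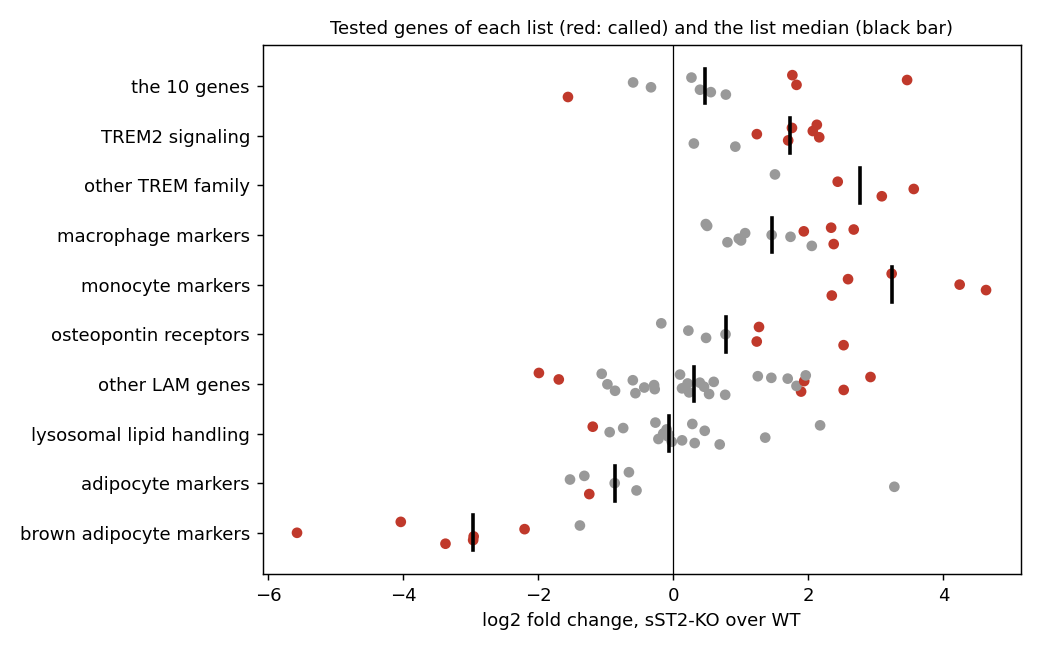
Log2 fold change of sST2-KO over WT (horizontal axis) of each tested gene in 10 lists, red where called and gray otherwise, with the list median as a black bar. The 10 genes lie on both sides of 0 around a median of 0.48, while the lists of TREM2 signaling (1.73) and macrophage markers (1.46) lie above 0 and the brown adipocyte list (-2.96) lies below it.

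Markers of other cell types were summed in the same libraries. For their calls, 9.04% of all genes tested were called higher and 7.10% lower. The 5 monocyte markers were all called higher and summed to 64.2 to 145 CPM in WT libraries and 679 to 1646 CPM in sST2-KO libraries. The 7 neutrophil markers summed to 31.9 to 137 CPM against 151 to 731 CPM, with 3 called higher, and the 6 T cell markers in the table to 12.1 to 13.6 CPM against 104 to 130 CPM, with 5 called higher. All monocyte and T cell markers were detected in every library, and 1 neutrophil marker was at 0 in 1 WT library. Of the osteoclast markers, Dcstamp was at 0 in every library and 0 of the 2 tested were called. The adipocyte markers summed to 6916 to 11360 CPM in WT libraries and 2566 to 5482 CPM in sST2-KO libraries, with 1 of 7 called lower, and the brown adipocyte markers to 8039 to 15160 CPM against 331 to 1761 CPM, with 6 of 7 called lower and all 7 detected in every library. The skeletal muscle markers summed to 1256, 20.8 and 6.41 CPM in the WT libraries and 3515 to 14990 CPM in sST2-KO libraries. All 9 were above the WT range in every sST2-KO library, while 0 passed edgeR's test with all libraries. Without WT replicate 1, which had the 1256 CPM, 9 of 9 were called higher. Calls without WT replicate 2 numbered 3 for monocytes, 1 for neutrophils, 5 for T cells and 2 for brown adipocytes. They numbered 0, 0, 4 and 1 without WT replicate 3, and 5, 1, 5 and 5 without sST2-KO replicate 3. The adipocyte list had 0 calls in each of these fits. The part of any of these cells in the levels of the 10 genes was not tested.

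The genes whose level was most like that of Trem2 were ranked by Pearson's correlation of log2 CPM over the 6 libraries, among 11949 genes. They were Cyth3 (0.971), Akirin1 (0.953), Tceal8 (0.953), 2410004B18Rik (0.952) and Gpr153 (0.949). Each was lowest in sST2-KO replicate 1 and highest in sST2-KO replicate 3, as Trem2 was. Their log2 fold changes lay between -0.037 and 0.30, and 0 of the 5 were called. None is a marker in the lists above or one of the other 9 genes. With 6 libraries that fall into 2 groups, this order is a description.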

How the data were processed

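Poly-A-selected RNA of BAT was sequenced as paired-end reads by the authors, who aligned the reads to mm39 with HISAT2 2.2.1 and ran htseq-count. What was deposited are raw counts for each gene symbol, not normalized. The setting for strand is not given in the sources used here. Opposite-strand gene models overlap Trem2, Gpnmb, Fabp5, Cd63, Cd9 and Apoe, and same-strand models overlap Cd9 and Spp1, so reads there may be shared or lost. Samples were grouped by their titles. All libraries stayed in the fit, and 0 columns of sample values were left unused.

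edgeR 4.0.16 was run in R 4.3.3 (filterByExpr, TMM, glmQLFit and glmQLFTest, no covariate). The paper's methods name DESeq2, which was an alternative here (version 1.42.0). The standard error is the log2 fold change divided by the root of F. Log2 CPM used a prior count of 2. The steps were tested on simulated counts with less spread between libraries than these data had. That checks the code and does not give error rates here. Precision is limited by 3 libraries per group, in which 1 CPM was 8.11 to 14.3 counts, and the p values measure only the spread between these mice. The chi-square between libraries of 1 group was 36.6 to 104 per degree of freedom, far above sampling noise, and each library was kept as its own replicate.

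The 10 genes, the other lists and the tests were chosen with earlier results of these data known. The genes named were the 10, Il1rl1, the lists of TREM2 signaling, the TREM family and osteopontin receptors, 4 macrophage markers, the 2 highest and 2 lowest log2 fold changes of the other lists (mean log2 CPM of at least 2) and the 5 genes most like Trem2. Alternatives were RLE factors, total counts, other filters, the replicate number as a block, robust estimation, DESeq2 and each library left out. Leaving out both WT replicate 2 and sST2-KO replicate 3, the ratios of gene pairs, and the motifs GAGGAA and TGANTCA, searched once CACGTG had given no match, were chosen after seeing the data. Positions are from the GENCODE annotation of GRCm39. Protein sequences were not used here. Figures were drawn with matplotlib 3.10.9.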

Additional observations from a re-analysis of the deposited data

How the results depend on the processing

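Spp1, Lgals3, Tyrobp and Apoe kept their direction in every alternative that could be fitted, and Spp1 could not be tested with at least 10 counts in every sample, which left 2 higher calls among the 10 genes. Their calls held with RLE factors, total counts, no filter, robust estimation and DESeq2. With each library left out in turn, between 0 and 3 of the 10 genes were called higher and between 0 and 1 lower, and over all genes between 36 and 1383 higher and between 22 and 998 lower. No gene of the 10 was called without WT replicate 2 or without WT replicate 3, and the cause was not tested. With the replicate block, 0 genes were higher and 0 lower over the whole table, and 0 of the 10 were called, with 4623 genes at an unadjusted p below 0.05 in edgeR. The deviations of same-numbered libraries correlated at -0.06, 0.21 and -0.31. The labels do not say whether the numbers pair mice, and 3 libraries per group are too few to settle it. Without both WT replicate 2 and sST2-KO replicate 3, 443 genes were higher and 462 lower, and of the 10 genes 1 was called higher (Tyrobp) and 0 lower. Without a minimum fold change, DESeq2 counted 2 of the 10 as lower, Apoe and Lipa.

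The sign turned in Trem2 with the replicate block (-0.028), without WT replicate 3 or sST2-KO replicate 3 (-0.046 and -0.66) and without both WT replicate 2 and sST2-KO replicate 3 (-0.20), with a range of -0.66 to 0.74 over the libraries left out, and in Fabp5 without those 2 libraries (-0.0081). Relative to macrophage markers, Tyrobp turned with Adgre1 alone (-0.068) and Cd63 without sST2-KO replicate 3 (0.049, and down to -0.86 without other libraries). Total counts, which moved the median of all genes from 0.034 to 0.29, moved the list medians of lysosomal lipid handling to 0.21, tetraspanins to 0.37 and galectins to -0.23. No filter moved apolipoproteins to -4.80. Without both WT replicate 2 and sST2-KO replicate 3 the medians were 1.00 for TREM2 signaling, 0.44 for osteopontin receptors, 0.41 for tetraspanins, -0.13 for galectins, -0.77 for fatty acid binding proteins and -1.42 for apolipoproteins. With a library left out, the medians ranged from 1.00 to 2.00 for TREM2 signaling, -0.024 to 0.43 for the 28 other genes of lipid-associated macrophages, 0.0020 to 0.32 for tetraspanins, -0.59 to -0.14 for galectins, -1.94 to -0.74 for fatty acid binding proteins, -5.47 to -1.46 for apolipoproteins and 0.78 to 1.76 for macrophage markers. Apolipoprotein medians covered 3 genes in the main fit and 3 to 7 with a library left out. Those of fatty acid binding proteins covered 2 genes and 2 to 3. The ranges of these lists thus also reflect which genes passed the filter. Depth limits Trem2, with 25 to 144 counts, and Spp1 in WT replicate 3, with 9.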
